A study of Homo sapiens with 6 samples.

Results

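The genes described here are 10 transporters that move amino acids across the plasma membrane: SLC7A5, SLC3A2, SLC43A1, SLC7A1, SLC7A2, SLC38A1, SLC38A2, SLC1A4, SLC1A5 and SLC6A9. They were chosen by gene name, and all 10 were found among the 58735 genes of the count table. Poly(A) RNA-seq was done on ACHN, a long-established cell line from a human renal carcinoma, which the labels class as clear cell and wild-type. One group of 3 libraries (Ctrl) was the control, named a vehicle control in the sample labels and an undosed one in the design text, and the other group of 3 (Curcumol) was treated with curcumol, a sesquiterpenoid of Curcuma rhizomes. The sources used here give neither dose nor exposure time. Library totals ran from 16962012 to 17827433 counts. All 10 transporters passed the filter on low counts and are among the 15160 genes tested.

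Amino acid transporters work as a network. Exchangers such as LAT1, formed by SLC7A5 and its partner SLC3A2, bring in leucine and other essential amino acids by letting glutamine out. Sodium-driven loaders, among them SLC38A1 and SLC38A2, concentrate glutamine and other neutral amino acids inside the cell, SLC1A5 takes up glutamine in exchange for other neutral amino acids, and cationic carriers of the SLC7 family supply arginine and lysine. Transcription of several of these genes responds to amino acid supply through the kinase GCN2 and the transcription factor ATF4. The leucine and arginine that enter are sensed by mTORC1 on the lysosome.

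Curcumol-treated cells had more mRNA of 2 transporters and less of 7 (edgeR quasi-likelihood test, adjusted p under 0.05). SLC3A2 and SLC38A2 rose about 5-fold, SLC7A2 and SLC6A9 fell more than 4-fold, and SLC7A1 fell 1.92-fold. SLC7A5, SLC1A4, SLC1A5 and SLC38A1 fell by 1.22-fold to 1.58-fold, and 2 of these calls, those of SLC7A5 and SLC1A5, depended on a correction for base composition given below. SLC43A1 was near the limit of detection and did not pass. The share of all tested genes that passed in either direction was 79.7%, with 39.4% higher and 40.3% lower, so 9 called of 10 is close to the share over all genes. The median log2 fold change of the 10 was -0.44, against -0.02 for all genes tested. For 9 of the 10 the curcumol libraries did not overlap the control libraries, where 81% of all tested genes were separated in this way.

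**Figure D1:**
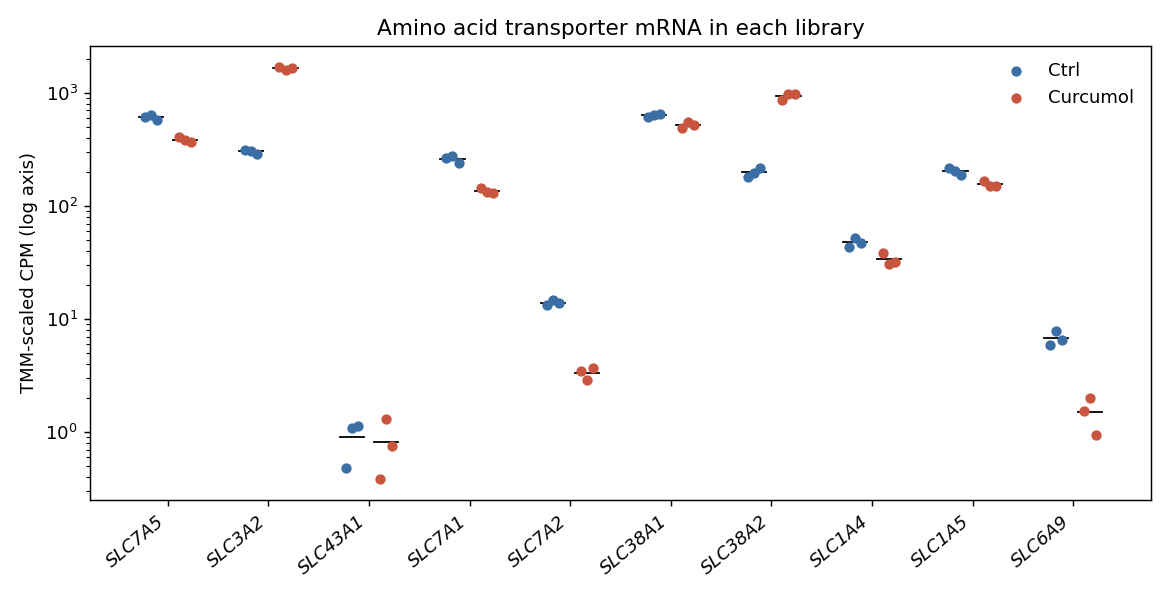
Counts scaled by library size and TMM (CPM, log axis) of each transporter in the 3 control (blue) and 3 curcumol (red) libraries, with the group mean as a line. SLC3A2 and SLC38A2 lie higher in all 3 curcumol libraries, 7 genes lie lower in all 3, and the groups overlap for SLC43A1.

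Library properties differed between the groups too. Scaling factors (TMM) ran from 1.089 to 1.103 in control and from 0.9003 to 0.9195 in curcumol, and with scaling by library totals alone the median log2 fold change of all genes was -0.28, with 4818 genes higher and 7372 lower. Direction also varied with base composition. Tested genes were split into 3 bins of equal size by the GC content of their longest transcript. In the high GC bin (53.1% to 83.9%) 23.0% of genes rose and 57.8% fell, while in the low GC bin (23.1% to 43.9%) 56.0% rose and 23.7% fell. SLC7A5, SLC3A2, SLC43A1, SLC1A5 and SLC6A9 belong to the high bin and SLC7A2, SLC38A1 and SLC38A2 to the low one. All 10 of the renal and epithelial markers examined were detected, PAX8 among them. The 10 summed to 3663 to 3864 CPM of library totals in control and 1977 to 2265 in curcumol. Of these, 9 (90.0%) were called lower in curcumol, beside 40.3% of all tested genes. Among the 9, the libraries of KRT18 overlapped between the groups, and CDH16 passed the filter on low counts only through control. Of 11 markers of leukocytes, endothelium, fibroblasts and red cells, CD3E and HBB were at 0 in all libraries and 7 had under 10 counts in each, and the list summed to 7.91 to 9.26 CPM in control and 9.90 to 17.1 in curcumol. Of the 3 that were tested, CD14 and PDGFRB were higher and COL1A1 was lower. CD14 was almost absent from control and passed the filter on low counts through the curcumol libraries alone. The filter thus favoured the direction of CD14. The part of these shifts in the results below was not tested, apart from the scaling and GC corrections given beside them. In bulk RNA a change in the number of cells and a change in RNA per cell cannot be told apart.

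SLC3A2 encodes CD98, the 4F2 heavy chain, a glycoprotein that carries no amino acid itself but brings light chains of the SLC7 family to the cell surface. The gene (ENSG00000168003) lies on the plus strand of chr11:62856102-62888875 (GRCh38). Its mRNA stood at 315, 309 and 289 CPM in the control libraries and at 1711, 1582 and 1652 CPM in the curcumol libraries. Each curcumol library held more than 5 times the highest control value. The mean went from 304 ± 13.7 to 1648 ± 64.9 CPM (n = 3, SD), a log2 fold change of 2.44 ± 0.06 (± SE; adjusted p = 5.16e-19, edgeR). This difference was larger in size than that of 89.6% of all tested genes. SLC3A2 rose although its GC content, 57.4%, places it in the bin where most called genes fell, and with an offset for GC content its log2 fold change was 2.90.

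SLC7A5 encodes LAT1, the light chain that, paired with CD98, exchanges large neutral amino acids such as leucine, tryptophan and phenylalanine. The gene (ENSG00000103257) is on the minus strand of chr16:87830023-87869488. It had 611, 633 and 581 CPM in control and 404, 387 and 367 CPM in curcumol, so that all treated libraries were lower. The log2 fold change was -0.66 ± 0.06 (± SE; adjusted p = 6.56e-10, edgeR). With the GC offset it was -0.03 (edgeR adjusted p = 0.623), and with library totals -0.92. SLC7A5P1, a pseudogene that resembles SLC7A5, held 8 to 21 counts per library against 5811 to 12266 for SLC7A5.

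The 2 partners of LAT1 therefore moved apart in these libraries. Their ratio within a library does not depend on how libraries are scaled. The log2 ratio of SLC7A5 to SLC3A2 counts was 0.96, 1.03 and 1.01 in control and -2.08, -2.03 and -2.17 in curcumol. In control the light chain had the higher count in every library, and in curcumol the heavy chain had. The mean log2 ratio changed by -3.09 ± 0.05 (SE), and an exact two-sided permutation test gave p = 0.1, the smallest that 3 libraries against 3 allow (0.167 after Benjamini-Hochberg adjustment over the 5 pairs compared). The transcripts hold 61.1% and 57.4% GC, and with the GC offset the difference was -2.93.

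CD98 serves several light chains besides LAT1, and these were summed per kilobase of annotated exons to set them beside the heavy chain, a description added after the values were seen. SLC7A11, the light chain of the cystine/glutamate exchanger xCT, rose from 59.4 ± 1.69 to 166 ± 14.7 CPM (n = 3, SD), a log2 fold change of 1.48 ± 0.07 (± SE; adjusted p = 3.41e-14, edgeR), or 0.77 with the GC offset. It shares 865 exonic bases with SLC7A11-AS1 on the other strand, which had 4 to 33 counts. SLC7A6, the y+LAT2 light chain, stood at 0.04 and did not pass, although with library totals it was lower (-0.23, edgeR adjusted p = 0.0213), and it shares 3371 of 7588 exonic bases with SLC7A6OS on the other strand, which had 158 to 239 counts. SLC7A7, the y+LAT1 light chain, had 5 to 13 counts in control and 14 to 17 in curcumol, a log2 fold change of 1.09 (edgeR adjusted p = 0.0338). That call was lost in 9 of 14 alternatives (0.82 to 1.14), among them library totals, the replicate block and leaving out control replicate 1 or 3 or any single curcumol library. SLC7A8 had at most 5 counts in a library, and SLC7A10 had 0 in all 6. Together the 6 light chains summed to 139, 144 and 133 CPM per kilobase in control and 105, 105 and 99.2 in curcumol. The sum was 2.36 ± 0.0647 times the SLC3A2 level in control and 0.325 ± 0.0175 times in curcumol (SD, n = 3). SLC7A5 made up 92.3% ± 0.255 of the light chain level per kilobase in control and 78.8% ± 1.80 in curcumol, and SLC7A11 went from 4.45% ± 0.306 to 16.7% ± 1.55. These sums and shares carry no GC correction. With the GC offset the log2 fold change was -0.03 for SLC7A5 and 0.77 for SLC7A11.

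**Figure D2:**
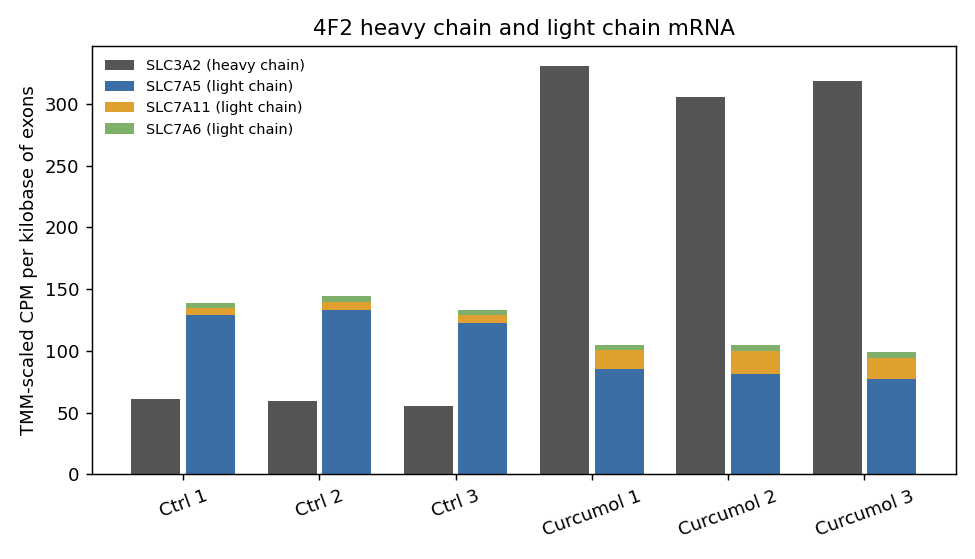
TMM-scaled CPM per kilobase of joined exons of SLC3A2 (grey bars) beside its light chains SLC7A5, SLC7A11 and SLC7A6 (stacked bars) in each of the 6 libraries; SLC7A7, SLC7A8 and SLC7A10 are too low to draw. The light chain stack exceeds SLC3A2 in every control library and is below it in every curcumol library.

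The absolute size of that ratio depends on the length used. The joined exons of SLC3A2 span 5178 bases, but its longest annotated transcript has 2222. With longest transcripts the light chains summed to 1.06 ± 0.0296 times SLC3A2 in control and 0.146 ± 0.00779 times in curcumol (SD, n = 3), so in control the 2 sides were then nearly equal. The ratio was lower in each curcumol library than in any control library with either length.

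SLC38A2, or SNAT2, is a sodium-coupled transporter of small neutral amino acids such as alanine, glutamine and proline (system A), known for its induction when amino acids run short. The gene (ENSG00000134294) lies on the minus strand of chr12:46358189-46372867. Control libraries had 179, 198 and 218 CPM and curcumol libraries 874, 981 and 973 CPM. The lowest curcumol library was about 4 times the highest control library. The log2 fold change was 2.25 ± 0.07 (± SE; adjusted p = 5.72e-17, edgeR), and 1.66 with the GC offset.

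SLC38A1, or SNAT1, is its close relative and lies beside it on the same strand (ENSG00000111371, chr12:46183063-46270017). It is a system A transporter with a preference for glutamine. Its values were 618, 638 and 655 CPM in control and 494, 553 and 516 CPM in curcumol, a small fall with no overlap between the groups. The log2 fold change was -0.29 ± 0.06 (± SE; adjusted p = 7.65e-05, edgeR). In a test against a change of 1.2-fold it did not pass (edgeR adjusted p = 0.173), while with the GC offset it stood at -0.72. The log2 ratio of SLC38A2 to SLC38A1 counts went from -1.79, -1.69 and -1.59 in control to 0.82, 0.83 and 0.91 in curcumol, a change of 2.54 ± 0.06 (SE). SLC38A1 thus had the higher count of the pair in every control library and SLC38A2 in every curcumol library, again with the smallest exact permutation p that the design allows (two-sided p = 0.1, adjusted 0.167).

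The upstream sequences of these genes are shown because SLC3A2 and SLC38A2 rose together while SLC7A5, the partner of SLC3A2, did not. RefSeq promoters (GRCh38.p14) were matched for 9 of the 10 transporters by symbol. The sequences are the 250 bases before the RefSeq start, read 5′ to 3′ on the strand of the gene, with a match to the E-box CACGTG in capitals. SLC3A2 is chr11:62881449-62881698 (plus strand, 65.6% GC), SLC38A2 is chr12:46372774-46373023 (minus strand, 73.6% GC) and SLC7A5 is chr16:87869508-87869757 (minus strand, 79.6% GC). The RefSeq start of SLC3A2 lies inside the annotated gene, which has earlier starts.
SLC3A2: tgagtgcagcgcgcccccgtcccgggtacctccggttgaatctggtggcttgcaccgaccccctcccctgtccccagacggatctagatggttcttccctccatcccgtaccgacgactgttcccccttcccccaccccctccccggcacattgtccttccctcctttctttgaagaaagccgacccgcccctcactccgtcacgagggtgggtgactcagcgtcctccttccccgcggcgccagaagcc
SLC38A2: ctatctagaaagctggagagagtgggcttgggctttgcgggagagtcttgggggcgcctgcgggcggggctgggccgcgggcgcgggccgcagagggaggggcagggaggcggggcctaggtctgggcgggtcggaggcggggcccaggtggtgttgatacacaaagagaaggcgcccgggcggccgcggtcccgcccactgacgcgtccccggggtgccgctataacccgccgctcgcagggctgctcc
SLC7A5: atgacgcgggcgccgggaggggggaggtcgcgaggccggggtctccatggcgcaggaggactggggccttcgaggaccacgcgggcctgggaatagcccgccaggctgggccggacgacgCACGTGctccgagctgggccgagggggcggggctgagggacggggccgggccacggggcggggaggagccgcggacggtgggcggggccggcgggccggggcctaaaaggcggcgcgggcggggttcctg

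On both strands of the 300 bases from 250 before to 50 after the start, 2 motifs were searched: TGATGNAA, the core of the element bound by C/EBP and ATF4 dimers, and CACGTG, an E-box bound by MYC and related factors. TGATGNAA was found in 3 of the 9 transporter promoters, those of SLC3A2, SLC7A1 and SLC38A1, against 3.62% of the 35116 promoters in the table. SLC3A2 rose and both others fell, and whether the motif had a part in these changes was not tested. CACGTG was found in SLC7A5 and SLC43A1, against 7.26% of all promoters, and SLC38A2, SLC1A4, SLC1A5 and SLC6A9 held neither. The matches to TGATGNAA are printed with up to 10 bases on each side and the match in capitals. The match in SLC3A2 is on the opposite strand and so reads as the reverse complement, and it starts 38 bases into the transcript. The match in SLC7A1 starts 8 bases into the transcript and that in SLC38A1 spans the start. Like that of SLC3A2, the RefSeq start of SLC38A1 lies inside the annotated gene, which extends upstream to chr12:46270017. The windows are chr11:62881726-62881748 for SLC3A2, chr13:29595664-29595691 for SLC7A1 and chr12:46266503-46266530 for SLC38A1. A match is a run of letters, not a measured site, and elements outside the window were not searched.
SLC3A2: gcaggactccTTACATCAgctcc
SLC7A1: ggcgcactgcTGATGAAAcctggcgccg
SLC38A1: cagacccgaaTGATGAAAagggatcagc

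Both cationic amino acid transporters of the described set, SLC7A1 and SLC7A2, fell. SLC7A1, or CAT1, is the main arginine and lysine carrier of most proliferating cells (ENSG00000139514, minus strand, chr13:29509410-29595688). It had 264, 276 and 238 CPM in control and 144, 132 and 129 CPM in curcumol. All treated libraries were lower, and the log2 fold change was -0.94 ± 0.07 (± SE; adjusted p = 1.85e-11, edgeR), or -0.73 with the GC offset. SLC7A2, or CAT2, carries the same amino acids (ENSG00000003989, chromosome 8). It was far less abundant, with 13.2, 14.8 and 13.9 CPM in control and 3.46, 2.89 and 3.66 CPM in curcumol. Its log2 fold change was -2.06 ± 0.15 (± SE; adjusted p = 4.79e-11, edgeR), and -2.51 with the GC offset. Its transcript has 41.0% GC and belongs to the bin in which most called genes rose. The log2 ratio of SLC7A1 to SLC7A2 rose in mean from 4.21 ± 0.11 to 5.33 ± 0.19 (SD, n = 3), with no overlap between groups (exact two-sided permutation p = 0.1, adjusted 0.167). The difference was 1.12 ± 0.13 (SE), and 1.78 with the GC offset.

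SLC1A4, or ASCT1, and SLC1A5, or ASCT2, are sodium-dependent exchangers of neutral amino acids, and SLC1A5 is a main route of glutamine into many tumour cells. SLC1A5 (ENSG00000105281, chr19:46774883-46788594) had 217, 204 and 187 CPM in control and 168, 150 and 151 CPM in curcumol, lower in all treated libraries. Its log2 fold change was -0.37 ± 0.07 (± SE; adjusted p = 2.63e-05, edgeR). With the GC offset the sign turned, to 0.27 (edgeR adjusted p = 3.73e-05), so the direction of SLC1A5 depends on that correction. SLC1A4 (ENSG00000115902, chr2:64988477-65023865) had 43.8, 52.0 and 47.3 CPM in control and 38.1, 30.9 and 32.1 CPM in curcumol. It fell by a log2 change of -0.50 ± 0.09 (± SE; adjusted p = 4.68e-05, edgeR), and by -0.62 with the GC offset. The log2 ratio of SLC1A5 to SLC1A4 overlapped between the groups, at 2.09 ± 0.19 in control and 2.22 ± 0.07 in curcumol (SD, n = 3; difference 0.13 ± 0.12 SE, exact two-sided permutation p = 0.4, adjusted 0.4), and the GC offset put the difference at 0.88.

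SLC6A9 encodes GLYT1, a sodium- and chloride-dependent glycine transporter (ENSG00000196517, chr1:43991500-44031467). Its counts were low, namely 109, 151 and 127 in the control libraries against 24, 32 and 15 after curcumol. The log2 fold change was -2.16 ± 0.24 (± SE; adjusted p = 3.81e-08, edgeR), and -1.60 with the GC offset. SLC6A9 shares 404 exonic bases with CCDC24 on the other strand, which itself had 48 to 51 counts in control and 7 to 9 in curcumol, and without known strand use the reads there cannot be assigned.

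SLC43A1, or LAT3, moves leucine and other large neutral amino acids without sodium or a heavy chain (ENSG00000149150, chr11:57484534-57515786). The control libraries held 9, 21 and 22 counts and the curcumol libraries 6, 21 and 12. The groups overlapped, and the log2 fold change was -0.14 ± 0.47 (± SE; adjusted p = 0.795, edgeR). A small change in either direction was not detectable at this depth. Its log2 ratio to SLC7A5 was -9.45 ± 0.68 in control and -8.98 ± 0.89 in curcumol (SD, n = 3; exact two-sided permutation p = 0.4, adjusted 0.4).

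**Figure D3:**
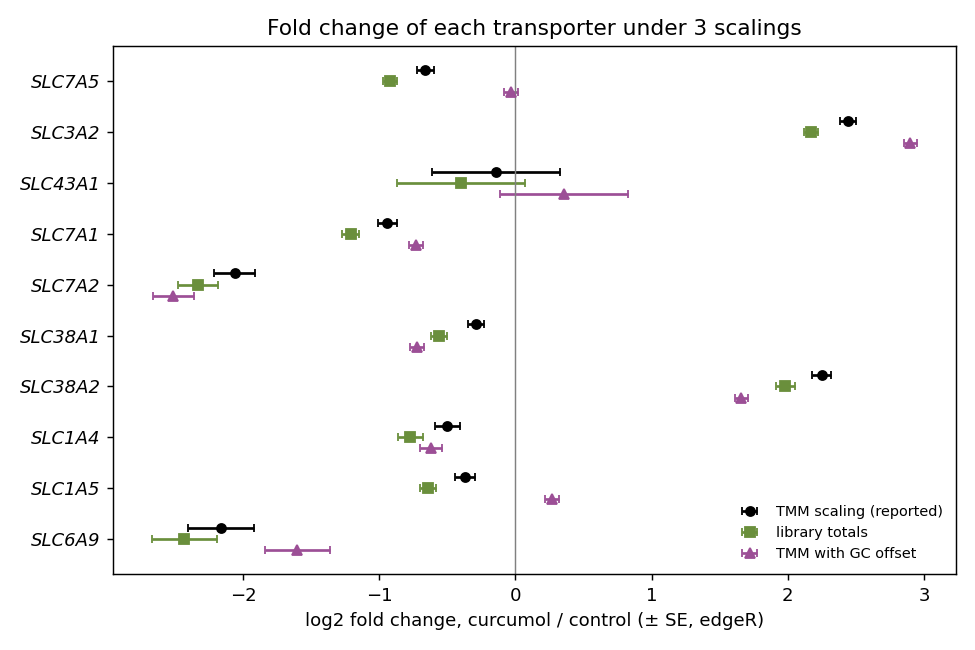
Log2 fold change (curcumol over control, ± SE from edgeR, x axis) of each transporter with TMM scaling (circles, the reported values), library totals (squares) and TMM with a GC offset (triangles). SLC3A2 and SLC38A2 stay above 0 and SLC7A1, SLC7A2, SLC38A1, SLC1A4 and SLC6A9 stay below 0 under all 3, while with the GC offset SLC7A5 lies at -0.03 and SLC1A5 at 0.27.

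Treated and untreated cells differed in the order of transporter levels per kilobase of joined exons. In control SLC7A5 was the most abundant at 128 ± 5.51 CPM per kilobase (SD, n = 3). SLC38A1 (63.6 ± 1.90), SLC1A5 (60.9 ± 4.55) and SLC3A2 (58.8 ± 2.64) followed, and neighbours among these overlapped in range. SLC7A1 (33.7 ± 2.52) and SLC38A2 (30.03 ± 2.97) overlapped as well, and SLC1A4 (6.87 ± 0.589), SLC7A2 (1.77 ± 0.0963), SLC6A9 (1.31 ± 0.189) and SLC43A1 (0.255 ± 0.103) came last, each apart from the next. In curcumol SLC3A2 led at 318 ± 12.5 CPM per kilobase (SD, n = 3), followed by SLC38A2 (143 ± 9.01) and SLC7A5 (81.3 ± 3.88). SLC38A1 (52.0 ± 2.96) and SLC1A5 (47.0 ± 2.99) overlapped, SLC7A1 (17.6 ± 1.02) and SLC1A4 (4.86 ± 0.556) were apart, and SLC7A2 (0.422 ± 0.0508), SLC6A9 (0.290 ± 0.103) and SLC43A1 (0.232 ± 0.133) overlapped with their neighbours. With the longest transcript as the length, SLC3A2 led in control too, at 137 ± 6.15 CPM per kilobase, and overlapped with SLC7A5 at 134 ± 5.76.

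The 10 transporters together took 0.248%, 0.254% and 0.246% of library counts in control and 0.345%, 0.350% and 0.351% in curcumol. That gain lay with SLC3A2 and SLC38A2, which went from 0.0550% ± 0.000873 to 0.236% ± 0.00444, whereas the remaining 8 went from 0.194% ± 0.00400 to 0.113% ± 0.00245 (SD, n = 3). Per kilobase, SLC3A2 and SLC38A2 made up 15.3% ± 0.406 and 7.81% ± 0.939 of the 10 in control and 47.9% ± 1.39 and 21.5% ± 1.58 in curcumol (SD, n = 3).

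Over the 6 libraries the genes whose log2 CPM followed SLC3A2, which changed most of the 10, most closely were CHCHD3, DDIT3 and FAM32A, with SERTAD2 and OSER1 equal to them at this precision (Pearson r = 0.9999 each, a description). DDIT3 encodes CHOP, a transcription factor of the stress response. With 2 groups so far apart such values are common: 1540 of 10430 genes with a mean of at least 100 counts had r above 0.99.

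Other amino acid transporters went both ways. Of 41 genes on that list, 19 had enough counts, of which 9 rose, 5 fell and 5 did not pass (edgeR), with a median log2 fold change of 0.17. The 47.4% higher and 26.3% lower stand beside 39.4% and 40.3% of all tested genes. These numbers depended on the settings. With library totals 6 rose and 6 fell, in the 1.2-fold test 7 rose and 5 fell, and with the GC offset 11 rose and 5 fell. SLC6A6, called higher at 0.17, overlapped between the groups. SLC1A3 and SLC1A1, both glutamate and aspartate carriers, rose: the counts of SLC1A3 were 6, 5 and 3 in control against 72, 87 and 62 after curcumol (log2 fold change 4.22 ± 0.35 SE), and SLC1A1 rose by 1.21. SLC38A9, a lysosomal arginine sensor for mTORC1, rose by 1.16, or by 0.48 with the GC offset. SLC38A10 fell by a log2 change of -1.69 ± 0.08 (SE), or -0.94 with the GC offset, and shares 610 exonic bases with a gene on the other strand. The neuronal carrier SLC6A17 (-2.49) and SLC7A14 (-3.18) fell from low levels. SLC1A3 and SLC7A7 passed the filter on low counts only through the curcumol libraries. SLC7A14 passed it only through control, with 50, 60 and 47 counts there against 3, 6 and 5. The filter thus favoured the direction of each of these genes, and they are included in the shares above.

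Of 17 genes of the amino acid response, 10 rose, 5 fell and 2 did not pass (edgeR), with a median log2 fold change of 0.50. That is 58.8% higher and 29.4% lower, beside 39.4% and 40.3% of all tested genes. ATF4, the transcription factor at the centre of the response, gave 8024, 8381 and 7763 counts in the control libraries and 10273, 8735 and 9187 after curcumol. After scaling it rose by 0.50 ± 0.06 (± SE; adjusted p = 3.36e-07, edgeR), or by 0.23 with library totals and 0.92 with the GC offset. ATF3 (3.53 ± 0.07), DDIT3 (3.33 ± 0.08) and SESN2 (1.99 ± 0.07), which encodes a leucine sensor that restrains mTORC1, rose most clearly. DDIT3 shares 355 of its exonic bases with the methionyl-tRNA synthetase gene on the other strand. ASNS, asparagine synthetase and a classic ATF4 target, stood at -0.08 ± 0.21 (± SE; adjusted p = 0.737, edgeR) with 53 to 88 counts per library. It shares 1985 of 4455 exonic bases with AC079781.5 on its own strand, so its level depends on how such reads were counted. Of the eIF2 kinase genes only EIF2AK3 (PERK) rose, by 1.94 on the log2 scale. EIF2AK4 (GCN2, -0.45), EIF2AK2 (-0.50) and EIF2AK1 (-0.16) were called lower. The fall of EIF2AK1 was 1.12-fold, and the gene shares 532 of 5550 exonic bases with AIMP2 on the other strand. Of the whole list, 4 genes were lower with DESeq2 and 4 in a test against a change of 1.2-fold, against 5. CHAC1, a glutathione-degrading ATF4 target, fell by 0.63 on the log2 scale but stood at 0.05 with the GC offset (edgeR adjusted p = 0.746). MYC, a transcription factor that promotes growth, went from 186 ± 4.31 to 41.0 ± 4.33 CPM (n = 3, SD), a log2 fold change of -2.19 ± 0.07 (± SE; adjusted p = 1.29e-16, edgeR).

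**Figure D4:**
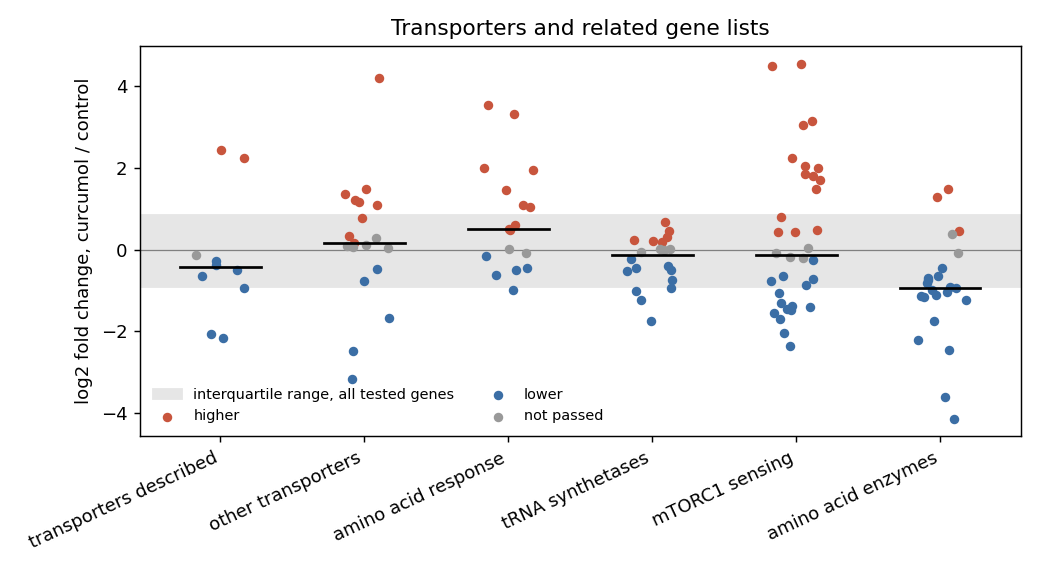
Log2 fold change (curcumol over control, y axis) of each tested gene in the 10 transporters and 5 related lists, red where higher, blue where lower and grey where not passed; lines are list medians and the grey band runs from -0.92 to 0.84, the interquartile range of all tested genes. The transporters spread from -2.16 to 2.44, and the amino acid enzymes have the lowest median, -0.93.

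Most genes for enzymes of the carried amino acids fell. Of 23 enzymes that make or use these amino acids 18 fell, 3 rose and 2 did not pass (edgeR), with a median of -0.93, beside 40.3% lower among all genes. PYCR3 (-4.15 ± 0.15) and PYCR1 (-2.21 ± 0.09) of proline synthesis fell. GLUL, glutamine synthetase, rose from 73.7 ± 4.67 to 206 ± 5.06 CPM (n = 3, SD), a log2 fold change of 1.48 ± 0.06. PHGDH, PSAT1 and PSPH, the 3 enzymes of serine synthesis, fell by 0.93 to 1.04 on the log2 scale. Among 20 cytosolic aminoacyl-tRNA synthetases, which load amino acids onto tRNA, 10 fell, 6 rose and 4 did not pass, with a median of -0.14. These counts stand beside 40.3% lower and 39.4% higher among all tested genes. With library totals 2 synthetase genes rose and 14 fell, while 4818 of all tested genes rose and 7372 fell. VARS1 (-1.74 ± 0.06), FARSA (-1.24 ± 0.08) and IARS1 (-1.01 ± 0.05) fell, and VARS1 stood at -1.06 and FARSA at -0.64 with the GC offset.

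Of 34 tested genes that sense amino acids for mTORC1 or belong to it, 15 rose, 15 fell and 4 did not pass (edgeR), with a median of -0.13. These shares, 44.1% in each direction, are near the 39.4% higher and 40.3% lower of all tested genes. SESN3 and CASTOR2, both included as higher, passed the filter on low counts only through the curcumol libraries. Control counts were 1, 0 and 2 for SESN3 and 17, 6 and 11 for CASTOR2. After curcumol they were 25, 12 and 29 for SESN3 and 36, 47 and 52 for CASTOR2. Their direction was thus favoured by the filter. The filter of 1 CPM and 50 counts left 13 genes of the list higher and 15 lower. BMT2, which encodes the S-adenosylmethionine sensor SAMTOR, rose from 5.58 ± 1.197 to 128 ± 13.5 CPM (n = 3, SD), a log2 fold change of 4.51 ± 0.12 (SE). RRAGC (3.07 ± 0.09), a Rag GTPase, and TSC1 (2.05 ± 0.06), which restrains Rheb, rose as well. TSC2 (-1.38), from the same list, fell, and RHEB (1.48), which encodes Rheb, rose. RRAGC shares 1183 exonic bases with another gene on its own strand. The other Rag GTPase genes went both ways, RRAGD (3.15) and RRAGB (0.81) being higher and RRAGA (-0.73) lower. So did those of the Ragulator complex, which holds the Rag GTPases on the lysosome: LAMTOR3 (1.71) and LAMTOR5 (0.44) rose, LAMTOR1 (-1.56) and LAMTOR2 (-0.26) fell, and LAMTOR4 (-0.08) did not pass. LAMTOR2 lost its call with the GC offset (-0.05), with DESeq2, in the 1.2-fold test and without control or curcumol replicate 3 (-0.24 and -0.19). MTOR (-0.64), RPTOR (-1.40) and MLST8 (-1.32), core subunits of mTORC1, fell. With the GC offset RPTOR stood at -0.82 and MLST8 at -0.57.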

How the data were processed

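The authors deposited 1 table of raw counts per Ensembl gene and library, not normalized, from poly(A)-selected paired-end libraries per the labels' protocols, with GRCh38 (hg38) as the genome build that the submitters' processing notes name. No source used here gives the aligner, counter, annotation release, use of strand or treatment of reads that fit several genes. All 58735 identifiers are in GENCODE 29, which gave coordinates, exon lengths, overlaps and the GC content of each gene's longest transcript.

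Genes were filtered with filterByExpr (minimum count 10), scaled by TMM and tested in edgeR 4.0.16 (robust quasi-likelihood F test, R 4.3.3) with Benjamini-Hochberg adjustment over 15160 genes and a threshold of 0.05. Standard errors (SE) were taken as |log2 fold change|/√F, and CPM carry the TMM scaling. Pair ratios used counts plus 0.5. Code was tested on simulated data. Alternatives were DESeq2 1.42.0, limma-voom (limma 3.58.1), other scalings and filters, a replicate block, a 1.2-fold test, a GC offset (spline with 5 degrees of freedom) and each library left out. The GC comparison of pair ratios was added after seeing the data. The members and lists were chosen with earlier results of these data known. Named genes are the 10 transporters, ATF4, ASNS, SLC7A11 and MYC, the 3 members with the smallest p of each list, and the 3 genes most like the member that changed most. Others were named after their values were seen. Same-numbered libraries did not deviate together (r of deviations 0.024, -0.012 and 0.075). Replicates are described as independent. No 2 libraries of a group agreed within sampling noise (chi-square/df 3.68 to 8.82). Low counts limit the precision for SLC7A2, SLC6A9 and SLC43A1, and the number of libraries limits it throughout.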

Additional observations from a re-analysis of the deposited data

How the results depend on the processing

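Of the 10 transporters, SLC3A2, SLC38A2, SLC7A1, SLC7A2, SLC1A4 and SLC6A9 kept their direction and their call in all 15 alternatives, with log2 fold changes of 2.17 to 2.90, 1.66 to 2.31, -1.21 to -0.73, -2.51 to -1.96, -0.77 to -0.44 and -2.43 to -1.60. SLC7A5 lost its call with the GC offset (-0.03) and SLC1A5 reversed to 0.27 there. CHAC1 lost its call there too (0.05). The cause was not tested. SLC38A1 did not pass the 1.2-fold test. SLC43A1 passed in none of its 14 alternatives (-0.65 to 0.36, the filter of 1 CPM and 50 counts having removed it), and its sign changed when single libraries were left out. With the GC offset 3 transporters were higher and 5 lower. The number of tRNA synthetase genes higher was 2 with library totals and 2 in the 1.2-fold test, against 6. The replicate block changed no call of these 10 and gave 5955 genes higher and 6131 lower, and pair ratio changes of -3.09, 2.54, 0.13, 1.12 and 0.47 within numbered pairs, where the smallest p possible is 0.25. The numbers do not pair the libraries. Without 1 library, 5903 to 6072 genes were higher and 5967 to 6232 lower. Per kilobase levels moved by more than 1 SD with the longest transcript for several genes, SLC3A2 by most. Counts of 6 to 22 per library limit SLC43A1.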
